A study of Mus musculus with 8 samples.

Results

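Integrins and laminins are receptors and ligands through which cells hold on to the basement membrane. A list of 34 of their genes, 24 for integrin chains and 10 for laminin chains, was taken by symbol from the 49315 genes counted in each library, and all 34 were found. The libraries were made from cultured cardiomyocytes, the contractile cells of the heart, isolated from C57/Bl6 mouse embryos at embryonic day 12.5, with male and female embryos pooled. There were 4 libraries from cells in control medium and 4 from cells in medium with 10 µM simvastatin, a drug that inhibits HMG-CoA reductase and so blocks the making of mevalonate. How long the cells were in the drug is not stated in the sources used. The labels' extraction protocol speaks of RNA from dissected hearts, whereas the series' design speaks of cells in culture, and no label says whether the replicates were separate cultures. The p-values therefore measure the spread between these libraries, which may be technical. Totals ran from 30474586 to 35215640 counts per library. The headers of the count columns name 2 sets: replicates 1 and 3 of each group are set 1 and replicates 2 and 4 are set 2, and what a set is was not stated in the sources used.

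Laminins are trimers of 1 alpha, 1 beta and 1 gamma chain that assemble into the sheet of the basement membrane. Integrins are receptors of 1 alpha and 1 beta chain that span the cell membrane: the alpha chain largely sets which ligand is bound, and the beta chain anchors to the actin cytoskeleton through talin and kindlin. In heart muscle the integrin of the chains alpha-7 and beta-1 and the dystroglycan complex are the main receptors for laminin, and integrins that bind fibronectin, collagen or vitronectin serve muscle cells and their neighbours alike.

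With simvastatin, 2 of the 34 genes rose and 6 fell. The genes that rose were the laminin beta chain gene Lamb3 (2.91-fold) and the integrin beta chain gene Itgb3 (2.39-fold). The genes that fell were Itga4 (5.53-fold), Itgb6 (3.58-fold), Itga1 (2.93-fold), Lamb1 (1.58-fold), Itga9 (1.45-fold) and Itga5 (1.42-fold). Calls are adjusted p-values under 0.05 in edgeR's quasi-likelihood test with Benjamini-Hochberg adjustment over the 16126 genes tested, with 4 libraries a group. Each call was computed again in 18 alternative fits: other scalings, tests, filters and terms, each set alone and each library left out. Lama3 and Lamc3 did not have enough counts to be tested, so 32 genes were. Calls made up 25.0% of the 32 genes, against 17.4% of all genes tested. By direction, 7.79% of all genes were higher and 9.61% were lower. The median log2 fold change of the 32 genes was 0.00 (range -2.47 to 1.54), with 16 genes above 0 and 16 below, and the median over all genes was 0.01. The fold changes thus lay on both sides of 0, and the 8 calls spread over 2 laminin and 6 integrin chains. The expression values of the 2 groups did not overlap in 10 of the 32 genes, the 8 called ones plus Itgb2 (higher) and Itga8 (lower), against 23.1% of all genes.

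**Figure D1:**
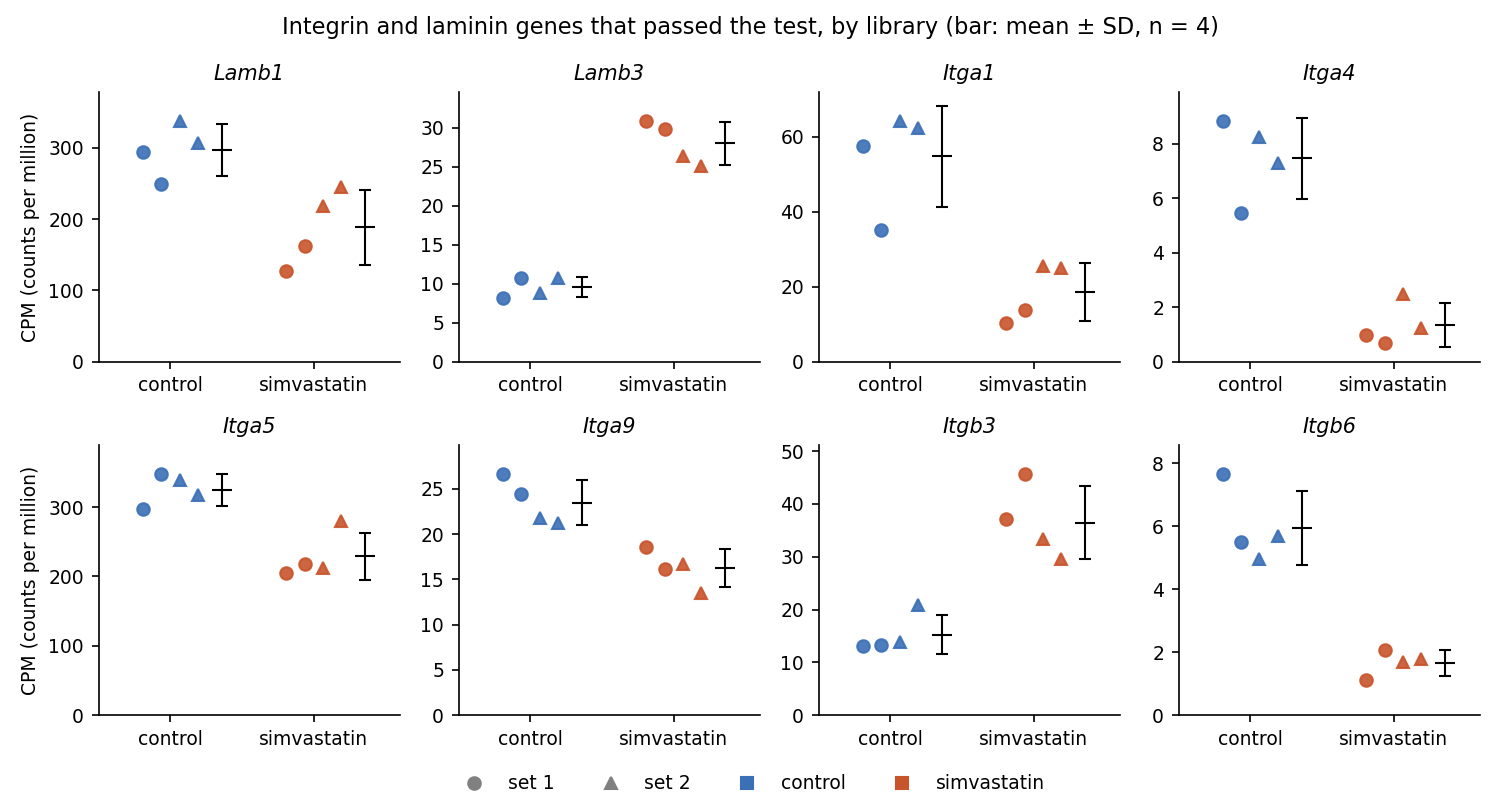
Expression of the 8 integrin and laminin genes that passed the test, in CPM (counts per 1000000 of the scaled library total) on the y axis, 1 panel a gene. Points are libraries, coloured by treatment and shaped by set, and the bar beside them is the mean ± SD of 4 libraries. The 4 simvastatin libraries lie above all controls for Lamb3 and Itgb3 and below all controls for the other 6 genes.

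The promoters of the called genes are shown because those genes moved in both directions. RefSeq promoters on GRCm38.p6, running from 250 bases before to 50 after a transcript start, matched 23 of the 34 genes. They matched 7 of the 8 called ones, all but Itgb3. The motifs searched, on both strands, were these: GGAATG, which TEAD factors bind; TGANTCA, which AP-1 binds; the CArG box, which SRF binds; and GGGCGG, the GC box of Sp factors. Capitals mark the matches. The 5 sequences are those of called genes in which a TEAD motif, CArG box or GC box was found, 5′ to 3′ on the gene's strand.
Itga4, chr2:79255176-79255475, plus strand: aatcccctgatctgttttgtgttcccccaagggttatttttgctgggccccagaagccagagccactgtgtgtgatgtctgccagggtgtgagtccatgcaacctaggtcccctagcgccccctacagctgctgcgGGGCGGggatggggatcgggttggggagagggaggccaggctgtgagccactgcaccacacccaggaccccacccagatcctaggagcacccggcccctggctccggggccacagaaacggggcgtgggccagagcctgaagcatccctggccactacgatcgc
Itga5, chr15:103366742-103367041, minus strand: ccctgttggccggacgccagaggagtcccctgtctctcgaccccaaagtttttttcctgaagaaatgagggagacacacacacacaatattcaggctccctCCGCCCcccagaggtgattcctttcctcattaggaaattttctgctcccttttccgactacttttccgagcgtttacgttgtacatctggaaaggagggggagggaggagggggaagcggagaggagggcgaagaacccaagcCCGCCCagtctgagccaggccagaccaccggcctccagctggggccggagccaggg
Lamb1, chr12:31265043-31265342, plus strand: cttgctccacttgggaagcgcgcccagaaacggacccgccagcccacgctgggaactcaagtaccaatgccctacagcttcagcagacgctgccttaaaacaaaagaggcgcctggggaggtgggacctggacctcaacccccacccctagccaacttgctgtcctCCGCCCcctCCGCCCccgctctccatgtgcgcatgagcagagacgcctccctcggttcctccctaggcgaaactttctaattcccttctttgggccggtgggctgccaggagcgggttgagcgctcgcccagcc
Itgb6, chr2:60673644-60673943, minus strand: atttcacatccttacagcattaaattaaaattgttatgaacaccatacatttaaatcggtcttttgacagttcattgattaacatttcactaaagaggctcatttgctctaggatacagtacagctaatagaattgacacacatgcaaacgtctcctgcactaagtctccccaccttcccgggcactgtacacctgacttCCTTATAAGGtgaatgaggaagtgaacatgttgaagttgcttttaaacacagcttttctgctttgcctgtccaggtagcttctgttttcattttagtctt
Lamb3, chr1:193301993-193302292, plus strand: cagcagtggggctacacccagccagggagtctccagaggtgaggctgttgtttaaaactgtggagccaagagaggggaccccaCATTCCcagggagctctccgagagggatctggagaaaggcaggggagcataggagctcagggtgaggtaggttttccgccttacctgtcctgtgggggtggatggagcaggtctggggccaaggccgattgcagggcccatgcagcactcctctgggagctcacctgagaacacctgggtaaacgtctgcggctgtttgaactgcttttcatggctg
In this window Itga4 had a GC box 114 bases before the start, Itga5 had a pair at 149 and 6 bases before it, and Lamb1 had a pair at 84 and 75 bases before it. The CArG box of Itgb6 lay 50 bases before a start that is 48950 bases downstream of the gene start in the files. The other Itgb6 entry, with a start 40 bases downstream of the gene start, held none of the motifs. For Lamb3 the TEAD motif lay 167 bases before a start that is 94544 bases downstream of the gene start in the files. The other Lamb3 entry, with a start 94295 bases downstream, held none of the motifs. None of the marked matches overlapped each other. Of the 23 genes with an entry, 3 held the TEAD motif, 3 the AP-1 motif, 2 a CArG box and 11 a GC box. Among all 32851 promoters of that length these motifs were found in 14.7%, 7.81%, 1.63% and 35.7% of entries. These are shares of entries, whereas the members were counted as genes, and the 23 genes had 26 entries. The median GC content was 58.8% in the entries of members and 52.7% in all entries. A TATA box (TATAAA) was also searched, and 0 of the 23 genes held one, against 13.6% of all entries. Of the called genes, 1 held the TEAD motif (Lamb3), 1 the AP-1 motif (Itga9), 1 a CArG box (Itgb6) and 3 a GC box. The entry of Itga1 held none of the motifs. The AP-1 motif of Itga9 lay 38 bases after a start that is 105002 bases downstream of the gene start in the files. A match in these letters is a description of the sequence.

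Levels of different genes can be compared only per length, as RPKM (counts per kilobase of exons, scaled to library size). In controls the integrin beta-1 gene Itgb1 was the most abundant of the 34, at 169 ± 62.6 RPKM (SD, n = 4), followed by Lamb2 (73.5 ± 13.9) and Itga5 (73.1 ± 5.12). Itga7 (40.3 ± 4.54) and Lamb1 (29.9 ± 3.71) came next, then Itgb5 (15.5 ± 2.57), Lama4 (14.5 ± 3.92) and Lamc1 (13.5 ± 1.15). Itga1 (9.16 ± 2.25), Lama5 (8.04 ± 0.467), Itga6 (5.81 ± 0.464), Itga3 (4.28 ± 1.32) and Lama2 (4.15 ± 1.18) followed. Lamb2 and Itga5 lay within their spread of each other, as did Itgb5, Lama4 and Lamc1, Itga1 and Lama5, and Itga3 and Lama2. The remaining 21 genes were lower, and over all libraries the last places went to Lama1, Lama3 and Lamc3.

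**Figure D2:**
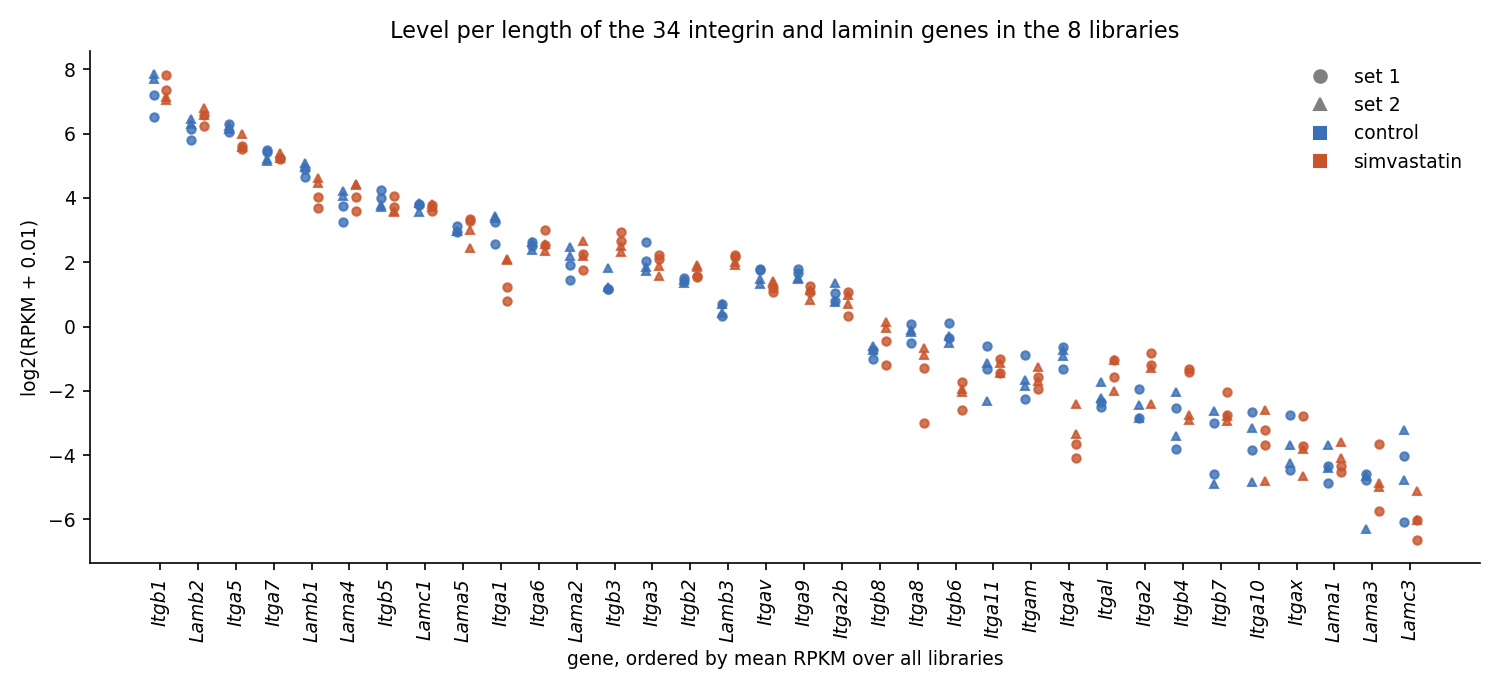
Level per length of the 34 genes, as log2(RPKM + 0.01) on the y axis, with genes on the x axis in order of their mean RPKM over all libraries. Each point is a library, with controls to the left and simvastatin to the right. Itgb1 stands first and Lama1, Lama3 and Lamc3 stand last.

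Among the laminin beta chains, Lamb3 rose and Lamb1 fell. The make-up of the class differed between the groups, mainly in the shares of Lamb1 and Lamb2. Lamb1 (chr12:31265234-31329644 in GRCm38), the beta-1 chain of the laminins of early embryonic and vascular basement membranes, measured 294, 307, 249 and 337 CPM in control replicates 1 to 4 and 128, 245, 162 and 218 CPM in simvastatin replicates 1 to 4. Every treated library was below every control, with simvastatin replicate 2 next to control replicate 3. The log2 fold change was -0.66 ± 0.19 (SE; adjusted p = 0.0355, edgeR), the largest adjusted p of the 8 calls. It was lost when control replicate 1, 2 or 4 or simvastatin replicate 1 or 3 was left out, with adjusted p-values up to 0.095. Lamb3 (chr1:193207699-193343878), the beta chain of the epithelial laminin-332, was low, with 8.23, 10.8, 10.7 and 8.84 CPM in controls and 30.9, 25.1, 29.9 and 26.4 CPM with simvastatin. Every treated library was above every control, with a log2 fold change of 1.54 ± 0.14 (adjusted p = 6.33e-05, edgeR). Lamb2, the beta-2 chain typical of mature muscle, did not pass the test, at 433, 484, 336 and 534 CPM in controls and 456, 672, 577 and 577 CPM with simvastatin (log2 fold change 0.35 ± 0.15, adjusted p = 0.158, edgeR), though it was called higher with the set as a term.

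As a share of the summed RPKM of the 3 beta chains, Lamb1 made up 29.0, 27.6, 30.6 and 27.6% in control replicates 1 to 4 and 13.9, 17.8, 14.1 and 18.2% in simvastatin replicates 1 to 4. The groups did not overlap, and with simvastatin the share was lower in the set 1 libraries (replicates 1 and 3) than in those of set 2. The ratio of Lamb1 to Lamb2 per length was 0.411 ± 0.0312 in controls (SD, n = 4; 0.387 to 0.454) and 0.200 ± 0.0321 with simvastatin (0.172 to 0.231). Lamb2 made up 69.9 ± 1.75% in controls and 80.3 ± 1.53% with simvastatin. Lamb3, although 2.91-fold higher, stayed a minor chain, at 1.43 ± 0.392% and 3.74 ± 0.992%.

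**Figure D3:**
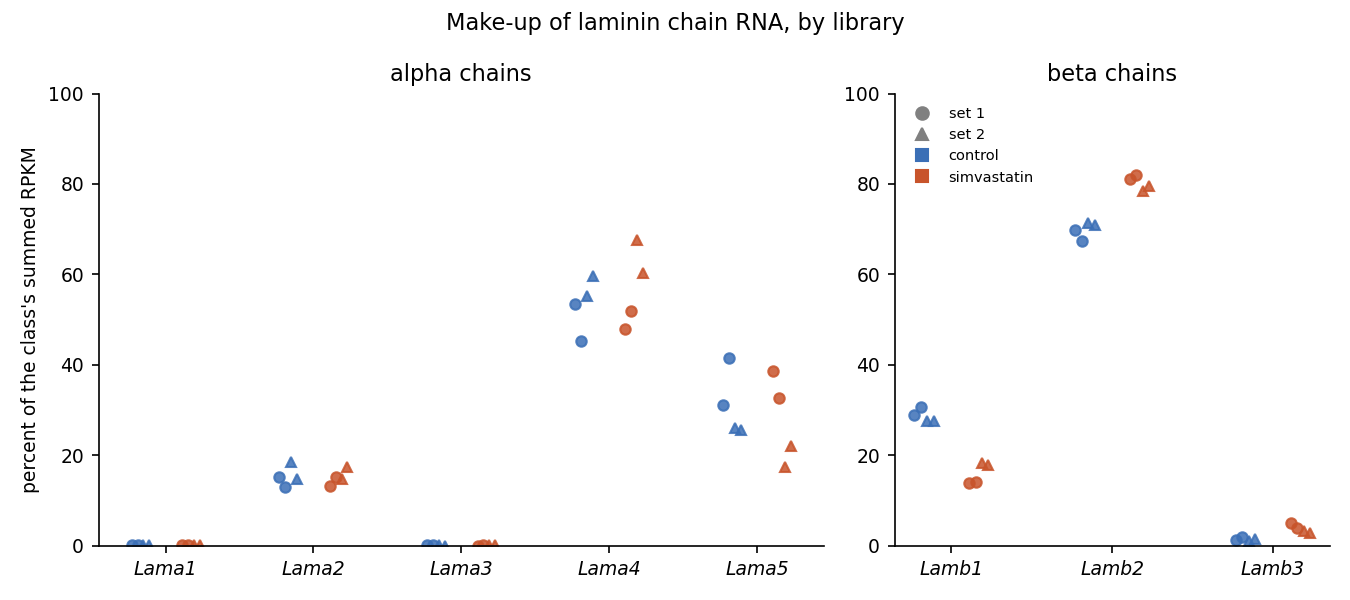
Share of each chain in the summed RPKM of the laminin alpha chains (left) and beta chains (right), in percent on the y axis. Each point is a library, with colour for treatment and shape for set. Lamb1 lies at 27.6 to 30.6% in controls and at 13.9 to 18.2% with simvastatin, and the alpha chains overlap between groups.

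The other tested laminin chains overlapped between the groups and did not pass the test. Lama4, the alpha chain of vascular and muscle laminins, measured 161, 222, 115 and 199.96 CPM in controls and 147, 263, 197 and 254 CPM with simvastatin. Lama5, the alpha-5 chain of many epithelial and vascular basement membranes, measured 87.9, 89.7, 99.5 and 89.2 CPM in controls and 112, 91.0, 117 and 62.1 CPM with simvastatin. For Lama2, the alpha chain of the main laminin of muscle, whose loss causes a muscular dystrophy, the values were 61.8, 74.1, 44.8 and 90.3 CPM in controls and 55.0, 103, 78.1 and 74.8 CPM with simvastatin. All 3 overlapped between groups, with log2 fold changes of 0.30 ± 0.22, 0.06 ± 0.17 and 0.20 ± 0.23 and adjusted p-values of 0.421, 0.871 and 0.631 (edgeR). Lamc1, the gamma chain of most laminins and 99.6% of the summed RPKM of Lamc1 and Lamc3 in controls, measured 115, 97.4, 116 and 118 CPM in controls and 113, 117, 99.9 and 108 CPM with simvastatin (-0.03 ± 0.10, adjusted p = 0.897). Of the 4 tested alpha chains, 0 passed in edgeR, 0 had an unadjusted p under 0.05 and 0 passed in DESeq2 or limma-voom. Lama1, an early embryonic chain, ran from 0.228 to 0.691 CPM over all libraries, Lama3, the alpha chain of laminin-332, from 0.0296 to 0.742, and Lamc3 from 0 to 0.592. Lama3, the alpha partner of Lamb3 in laminin-332, thus had 1 to 23 counts a library. Control replicate 3 and simvastatin replicate 1 were the lowest of their groups in Lama2, Lama4, Lamb1, Lamb2 and Itga1 alike.

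**Figure D4:**
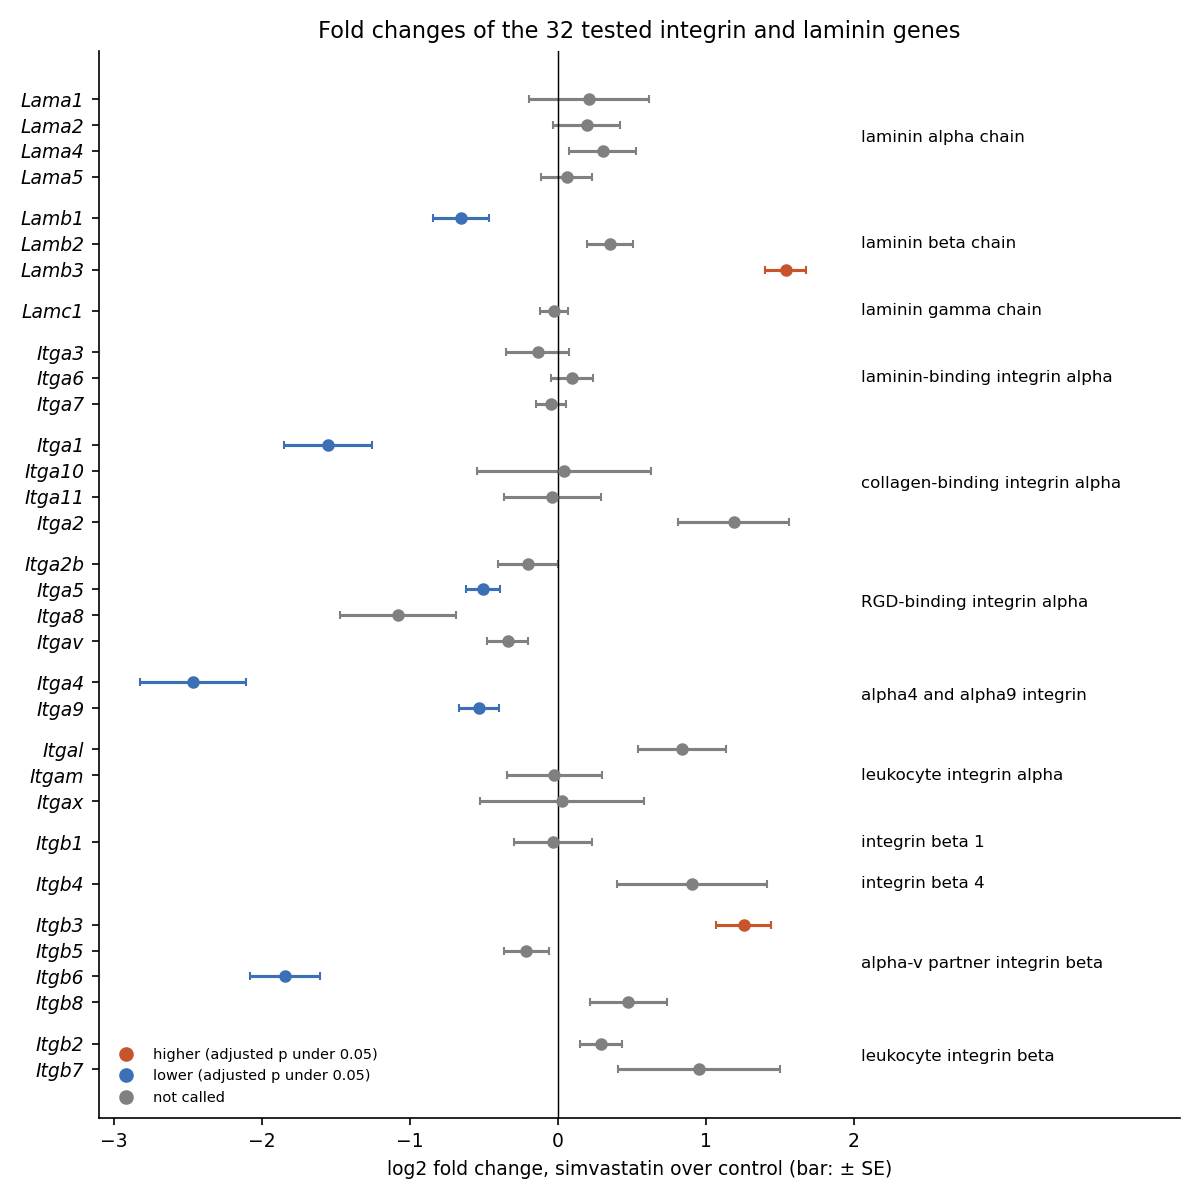
Log2 fold change of simvastatin over control for the 32 tested genes on the x axis, grouped by role, with bars for ± SE (n = 4 libraries a group). Orange marks genes called higher, blue marks genes called lower and grey marks genes not called. The range is -2.47 (Itga4) to 1.54 (Lamb3).

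The laminin-binding integrin alpha chains Itga3, Itga6 and Itga7 did not pass the test. Itga7, the laminin receptor chain of skeletal and heart muscle, measured 182, 143, 171 and 149.96 CPM in controls and 152, 171, 148 and 153 CPM with simvastatin (-0.05 ± 0.10, adjusted p = 0.814, edgeR). Itga6, which binds laminin in epithelia and endothelium, measured 55.6, 47.3, 50.9 and 56.2 CPM in controls and 72.4, 45.8, 52.6 and 53.9 CPM with simvastatin (0.10 ± 0.14, adjusted p = 0.714, edgeR). Both overlapped between the groups, as did Itga3 (16.9 to 35.4 CPM over all libraries). Of these 3 genes, 0 had an unadjusted p under 0.05 and 0 passed in DESeq2 or limma-voom. Itgb4, the beta-4 chain that pairs with alpha-6 in hemidesmosomes, was near the floor, at 0.427 to 2.74 CPM, and did not pass (adjusted p = 0.271, edgeR).

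Of the 4 collagen-binding alpha chains, Itga1 fell. Itga1 (chr13:114958079-115101964), which pairs with beta-1 and binds collagen IV and laminin, measured 57.5, 62.4, 35.1 and 64.2 CPM in controls and 10.4, 24.9, 13.9 and 25.4 CPM with simvastatin. The highest treated library was below the lowest control. The log2 fold change was -1.55 ± 0.30 (adjusted p = 0.00487, edgeR), and the call held in all 18 alternatives. The gene for a second collagen receptor chain, Itga2, lies 26.0 kb from Itga1 on chromosome 13, on the same strand and with no coding gene between them. It was far lower, at 1.05, 0.740, 0.544 and 0.550 CPM in controls and 1.80, 1.70, 2.35 and 0.757 CPM with simvastatin, with the treated values mostly above. Its log2 fold change was 1.19 ± 0.37 and its adjusted p-value 0.0532 (edgeR), just above the threshold, and it was called higher in 7 of the 18 alternatives, among them the fit with the set as a term (adjusted p = 0.0415). These neighbours thus had fold changes of opposite sign, of which that of Itga1 passed. The remaining 2, Itga10 and Itga11, had adjusted p-values of 0.975 and 0.961, and 33.5% of the exon bases of Itga10 are shared with another gene model, so its counts are uncertain.

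The fall was largest for the alpha-4 chain, a minor one. In controls it stood at 0.533 RPKM, or 0.373% of the summed RPKM of the alpha chains. Itga4 (chr2:79255426-79333123), which with beta-1 binds VCAM-1 and fibronectin and is needed for the attachment of the epicardium to the embryonic heart, measured 8.83, 7.28, 5.47 and 8.25 CPM in controls and 0.977, 1.24, 0.677 and 2.502 CPM with simvastatin. All 4 treated libraries were below the lowest control, and the mean fell from 7.46 ± 1.47 to 1.35 ± 0.802 CPM (SD, n = 4). The log2 fold change was -2.47 ± 0.36 (adjusted p = 0.000996, edgeR). A share of 8.04% of its exon bases overlaps Cerkl on the other strand, whose own mean count was 2.62, and whether reads were counted by strand is not stated in the sources used. Itga9 (chr9:118606690-118901003), the alpha chain most like alpha-4, which binds tenascin-C and osteopontin, measured 26.6, 21.2, 24.4 and 21.8 CPM in controls and 18.6, 13.5, 16.1 and 16.7 CPM with simvastatin. Here too the groups did not overlap, with a log2 fold change of -0.53 ± 0.14 (adjusted p = 0.0205, edgeR). That call was lost in set 1 alone and without control replicate 1, simvastatin replicate 2 or simvastatin replicate 3, with adjusted p-values up to 0.120.

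Among the alpha chains that read the RGD sequence of fibronectin and vitronectin, Itga5 fell. Itga5 (chr15:103344286-103366763), the main fibronectin receptor chain, was the most abundant alpha chain, at 297, 317, 347 and 339 CPM in controls and 206, 279, 218 and 212 CPM with simvastatin. The groups were separate, with simvastatin replicate 2 nearest to the controls, and the log2 fold change was -0.51 ± 0.11 (adjusted p = 0.0110, edgeR). In set 2 alone, 2 libraries against 2, the adjusted p-value was 0.0572. Its share of the summed RPKM of the 16 integrin alpha chains was 51.0 ± 3.04% in controls and 45.8 ± 2.92% with simvastatin (SD, n = 4), while that of Itga7 was 28.0 ± 2.63% and 34.8 ± 0.775%. That sum was 143 ± 5.45 in controls and 112 ± 9.71 with simvastatin. Itga8, which binds nephronectin, did not overlap between groups, at 7.63, 6.78, 5.12 and 6.47 CPM in controls and 0.851, 4.55, 2.97 and 3.92 CPM with simvastatin. It did not pass (-1.08 ± 0.39, adjusted p = 0.0874, edgeR), and was called lower in 4 of the 18 alternatives, among them the fit with the set as a term (adjusted p = 0.0497). Itgav, the shared alpha chain of the vitronectin and TGF-beta-activating integrins, did not pass either (-0.34 ± 0.14, adjusted p = 0.125). For Itga2b, the platelet chain, the adjusted p-value was 0.574.

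Of the beta chains that pair with alpha-v, Itgb3 rose and Itgb6 fell. Itgb3 (chr11:104608000-104670476), the beta-3 chain of the vitronectin receptor and of the platelet fibrinogen receptor, measured 13.2, 20.8, 13.3 and 13.9 CPM in controls and 37.2, 29.7, 45.6 and 33.3 CPM with simvastatin. All treated libraries were above the highest control, replicate 2, and the log2 fold change was 1.26 ± 0.19 (adjusted p = 0.00115, edgeR). Itgb6 (chr2:60598292-60722643), the epithelial beta-6 chain, whose integrin activates TGF-beta, measured 7.66, 5.68, 5.49 and 4.95 CPM in controls and 1.10, 1.79, 2.06 and 1.68 CPM with simvastatin. The groups were far apart, with a log2 fold change of -1.84 ± 0.24 (adjusted p = 0.000459, edgeR). Itgb6 was a minor chain, at 0.836 RPKM in controls, or 0.503% of the summed RPKM of the beta chains. The ratio of Itgb3 to Itgb6 per length was 3.19 ± 0.974 in controls (2.07 to 4.41) and 27.8 ± 9.01 with simvastatin (20.02 to 40.7; SD, n = 4). Both calls held in all 18 alternatives. Itgb5 was the most abundant of the chains listed here as alpha-v partners (Itgb3, Itgb5, Itgb6 and Itgb8). It measured 54.2, 44.5, 63.5 and 46.5 CPM in controls and 56.1, 40.3, 44.0 and 39.8 CPM with simvastatin and did not pass (-0.21 ± 0.15, adjusted p = 0.397, edgeR). Itgb8 did not pass either (adjusted p = 0.259), and ran from 4.73 to 12.1 CPM. It was called higher in set 2 alone (log2 fold change 0.74, adjusted p = 0.0172, edgeR) and without simvastatin replicate 1 (0.69, adjusted p = 0.0374).

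Itgb1 (chr8:128685654-128733200), the beta-1 chain shared by the laminin, collagen and most fibronectin receptors, made up 87.0 ± 5.49% of the summed RPKM of the 8 integrin beta chains in controls and 86.9 ± 2.12% with simvastatin. It measured 376, 845, 601 and 945 CPM in controls and 665, 574, 928 and 538 CPM with simvastatin, a wide spread in both groups. The pooled log2 fold change was -0.03 ± 0.27 (adjusted p = 0.957, edgeR), and its sign changed with library totals as the scaling. In set 1 both treated libraries exceeded both controls (log2 fold change 0.68, adjusted p = 0.169), and in set 2 both were below them (-0.69, adjusted p = 0.0011, edgeR on 2 against 2). The difference between the sets, as an interaction term, was -1.39 with an unadjusted p of 0.0013 and an adjusted p of 0.0969 in edgeR. Of all genes, 5.44% had such opposite, non-overlapping directions in the 2 sets, and the interaction passed for 9 genes, or 0.0558%. Of the 32 integrin and laminin genes 0 passed it in edgeR and 5 had an unadjusted p under 0.05. No other tool was run on it.

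**Figure D5:**
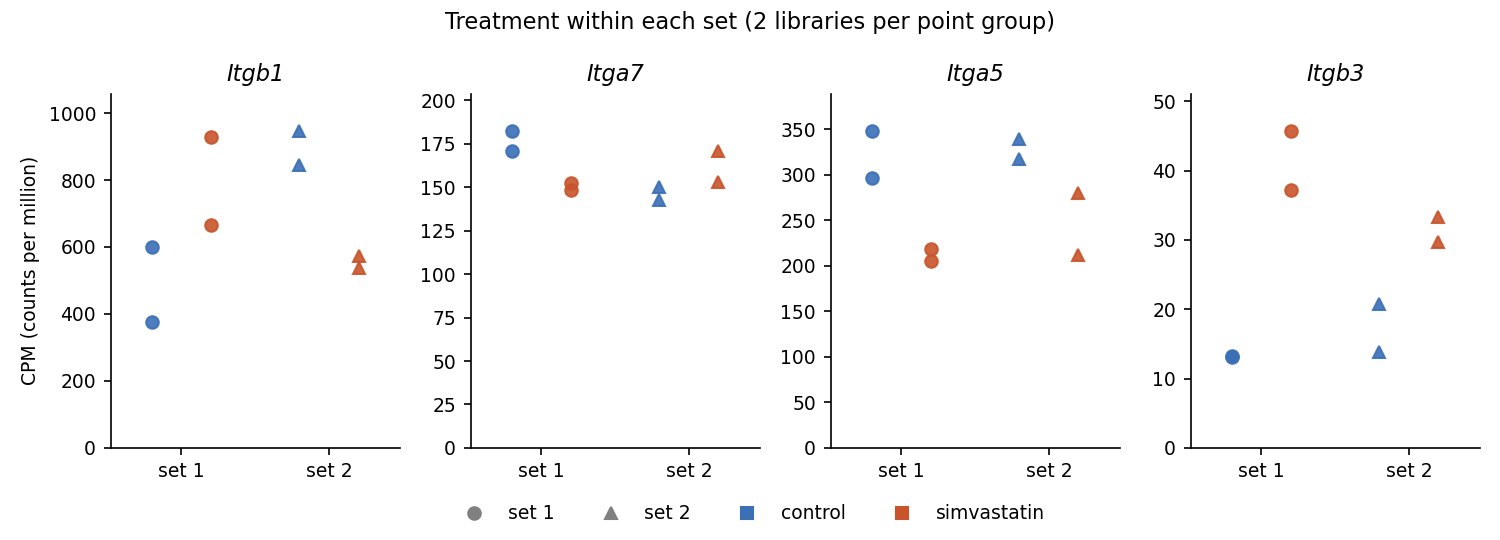
CPM of Itgb1, Itga7, Itga5 and Itgb3 by set, with 2 control and 2 simvastatin libraries in each set. With simvastatin Itgb1 lies above the controls in set 1 and below them in set 2, Itga7 does the reverse, and Itga5 and Itgb3 keep 1 direction in both sets.

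All 8 called genes kept their direction in both sets. For set 1 and set 2 in turn, the log2 fold changes were -3.12 and -2.06 for Itga4, -2.07 and -1.62 for Itgb6, and -1.95 and -1.33 for Itga1. They were -0.92 and -0.48 for Lamb1, -0.62 and -0.42 for Itga5, and -0.57 and -0.51 for Itga9. The genes that rose gave 1.66 and 1.39 for Lamb3 and 1.63 and 0.86 for Itgb3. The size was greater in set 1 for all 8, though their interaction terms did not pass the adjusted threshold. The median was -0.03 over the 32 genes in set 1 and 0.06 in set 2, where Itgax was not tested and is left out.

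The leukocyte integrins were at low levels. Itgb2, the beta chain common to them, measured 7.70 to 8.69 CPM in controls and 8.81 to 11.5 CPM with simvastatin, without overlap, but did not pass the test (log2 fold change 0.29 ± 0.14, adjusted p = 0.203, edgeR). Itgal, the alpha chain of LFA-1, measured 1.08, 1.33, 1.23 and 1.94 CPM in controls and 3.12, 1.55, 2.16 and 3.16 CPM with simvastatin (adjusted p = 0.0789). Itgam, of macrophages, averaged 1.63 ± 0.728 and 1.61 ± 0.328 CPM, and Itgax, of dendritic cells and macrophages, and Itgb7, of lymphocytes, did not pass either (adjusted p = 0.982 and 0.286). Of the 5 leukocyte chains, 0 passed in edgeR and in limma-voom, 1 (Itgal) passed in DESeq2, and 1 had an unadjusted p under 0.05. For Itgam, 68.7% of exon bases are shared with another gene model, so its counts are uncertain.

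Bulk RNA cannot tell fewer cells of a type from less RNA per cell, so marker lists of other cell types are given beside these calls. Of all genes tested, 7.79% were called higher and 9.61% lower, and the marker lists were not tested against these shares. Cardiomyocyte markers summed to 45537 to 55260 CPM in controls and 51063 to 55965 CPM with simvastatin, with 1 of 10 higher (Myh7). Smooth muscle and pericyte markers summed to 2688 to 3750 CPM in controls and 730 to 972 CPM with simvastatin, with 5 of 7 lower (Acta2, Tagln, Myh11, Cnn1 and Pdgfrb) and 1 higher (Cspg4). Acta2, smooth muscle actin, made up most of the control sums, at 2582 ± 488 CPM, and averaged 291 ± 87.0 CPM with simvastatin (SD, n = 4). Its log2 fold changes were -3.80 in set 1 and -2.57 in set 2 (interaction adjusted p = 0.0379, edgeR). In controls Acta2 stood at 1450 RPKM, beside 1444 for the cardiomyocyte marker Tnnt2, and which cells held it was not tested. For fibroblasts and mesenchyme the sums were 882 to 1981 CPM and 915 to 1102 CPM, with 3 of 7 tested lower (Pdgfra, Tcf21 and Col3a1). Col1a1, which was not called, made up most of each sum, at 796 ± 358 CPM in controls and 606 ± 70.7 CPM with simvastatin. The control sums differed by set, at 1713 and 1981 CPM in set 1 and 882 and 908 CPM in set 2. The log2 fold changes in set 1 and set 2 were -2.21 and -0.20 for Pdgfra, -2.62 and -0.17 for Tcf21 and -1.61 and -0.07 for Col3a1. The interaction with set passed for Tcf21 and Col3a1 (adjusted p = 0.0351 and 0.0277, edgeR) and did not for Pdgfra (adjusted p = 0.0613). The calls of all 3 were lost with the set as a term, and when any 1 of the 4 libraries of set 1 was left out; that of Col3a1 was also lost without simvastatin replicate 2. Dcn, of the same list, was higher without overlap but did not pass (0.53 ± 0.20, adjusted p = 0.106), though it was called with the set as a term. Epicardial and epithelial markers summed to 216 to 330 CPM and 251 to 301 CPM, with 3 of 8 tested lower (Wt1, Aldh1a2 and Krt18) and 1 higher (Msln). Wt1, a transcription factor of the epicardium, fell (log2 fold change -1.98 ± 0.23, adjusted p = 0.000261, edgeR). Macrophage and leukocyte markers summed to 360 to 451 CPM and 309 to 407 CPM, with 4 of 11 tested lower (Cd68, Adgre1, C1qb and C1qc). Lyz2, which was not called, made up most of each sum, at 318 ± 37.7 CPM in controls and 289 ± 37.4 CPM with simvastatin. Endothelial and endocardial markers summed to 245 to 323 CPM and 235 to 301 CPM, with 2 of 10 higher (Tek and Nfatc1) and 2 lower (Emcn and Npr3). Megakaryocyte and platelet markers summed to 22.2 to 32.2 CPM and 9.64 to 24.5 CPM; of 6 tested, 0 passed in edgeR and in DESeq2, 2 had an unadjusted p under 0.05, and limma-voom called 1. Erythroid markers summed to 8.26 to 13.7 CPM and 16.9 to 39.7 CPM, with 3 of 6 tested higher (Hba-a2, Hbb-bt and Hbb-y). No marker was at 0 in all libraries. Itga1, Itga4, Itga9 and Itgb6 are also expressed in smooth muscle, epicardium, mesenchyme or epithelium, and the part of these cells in the falls was not tested.

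Many other ligands of integrins fell. Of 27 genes in that list 22 were tested, of which 11 fell and 1 rose (Thbs2), or 54.5% called against 17.4% of all genes, and the median log2 fold change was -0.65 (set 1 -1.02, set 2 -0.45). The rise of Thbs2, a thrombospondin, was lost without any 1 of control replicates 2, 3 and 4 or simvastatin replicates 2, 3 and 4. Tgfb3, whose latent peptide holds an RGD sequence, averaged 90.6 ± 5.69 CPM in controls and 26.0 ± 3.29 CPM with simvastatin (SD, n = 4; log2 fold change -1.80 ± 0.11, adjusted p = 1.46e-05, edgeR). Ccn2 and Ccn1, matricellular ligands of alpha-v and other integrins, went from 846 ± 102 to 199 ± 62.8 and from 389.8 ± 75.2 to 81.6 ± 31.6 CPM (adjusted p = 0.000151 and 0.000301). Madcam1, a ligand of the alpha-4/beta-7 integrin, was low and fell from 3.46 ± 0.209 to 0.751 ± 0.171 CPM (adjusted p = 0.000120). Ligands of alpha-5, alpha-4 and alpha-9, chains that fell, were then looked up after their values had been seen. Fn1, fibronectin, the ligand of alpha-5 and alpha-4, fell from 929 ± 276 to 544 ± 76.5 CPM (log2 fold change -0.77 ± 0.19, adjusted p = 0.0173, edgeR), and Tnc and Spp1, tenascin-C and osteopontin, ligands of alpha-9, fell by 0.99 and 0.78 on the log2 scale (adjusted p = 0.00845 and 0.00876). The call of Fn1 was lost without simvastatin replicate 1 and with the replicate number as a block, with adjusted p-values up to 0.0603. Vcam1, another ligand of alpha-4, did not pass (-0.05 ± 0.16, adjusted p = 0.873). Among the collagen IV chains, ligands of alpha-1, Col4a1 and Col4a2 did not pass and Col4a3 and Col4a4 rose, as given below.

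Among 21 other components of the basement membrane 5 rose and 1 fell, or 28.6% called against 17.4% of all genes, with a median log2 fold change of -0.02. Col4a3 and Col4a4, collagen IV chains that sit head to head in the genome, rose together from 18.8 ± 3.31 to 53.8 ± 5.48 CPM (1.51 ± 0.14, adjusted p = 7.40e-05, edgeR) and from 12.6 ± 1.24 to 35.8 ± 3.46 CPM (1.51 ± 0.12, adjusted p = 4.09e-05). Both were low in controls, at 1.89 and 1.18 RPKM, against 188 for Col4a1 and 126 for Col4a2. Col4a1 and Col4a2, named after their values were seen, leaned lower but did not pass (-0.40 ± 0.14 and -0.50 ± 0.20, adjusted p = 0.0768 and 0.126, edgeR). In set 2 alone, 2 libraries against 2, Col4a2 was called lower (-0.85, adjusted p = 0.00158, edgeR). Col18a1, a collagen with heparan sulfate chains, rose from 102 ± 9.12 to 148 ± 11.6 CPM (adjusted p = 0.00357). Agrn, agrin, which links laminin to dystroglycan, rose from 28.4 ± 4.76 to 44.0 ± 5.74 CPM (adjusted p = 0.0126). The other 2 calls were Ntn1, a laminin-related netrin (0.75 ± 0.17, adjusted p = 0.0131), and Smoc1, a calcium-binding matrix protein and the gene that fell (-2.22 ± 0.52, adjusted p = 0.0136). Smoc1 was low, at 0.284 to 3.52 CPM over all libraries. Its groups overlapped, with control replicate 1 at 0.712 CPM and simvastatin replicate 3 at 0.839 CPM. In set 1 alone its call was lost (adjusted p = 0.369, edgeR). Without control replicate 1, 3 genes of this list fell.

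Of 23 genes for laminin receptors outside the integrins and their partners 7 rose, or 30.4%, against 7.79% of all genes higher, with a median log2 fold change of 0.13. Sgca, a sarcoglycan of the dystroglycan complex of muscle, rose from 67.7 ± 3.35 to 96.8 ± 3.96 CPM (0.52 ± 0.08, adjusted p = 0.00199, edgeR). Cd9, a tetraspanin that associates with integrins, rose from 64.0 ± 11.6 to 124 ± 24.1 CPM (0.96 ± 0.17, adjusted p = 0.00316). Dag1, dystroglycan itself, named after its values were seen, measured 253, 511, 392 and 576 CPM in controls and 397, 365, 576 and 313 CPM with simvastatin (-0.07 ± 0.25, adjusted p = 0.898). As with Itgb1, its log2 fold change was positive in set 1 (0.57) and negative in set 2 (-0.68).

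Of 24 tested genes for proteins that join integrin tails to actin and to signalling, 2 rose and 4 fell, or 25.0% called against 17.4% of all genes, with a median log2 fold change of -0.09. Tns2, a tensin, rose from 32.5 ± 3.46 to 74.9 ± 12.8 CPM (1.20 ± 0.14, adjusted p = 0.000285, edgeR), and Cib1, which binds integrin tails, rose too (0.66 ± 0.11, adjusted p = 0.00282). Bcar1, the adhesion scaffold p130Cas, fell from 151 ± 11.3 to 96.5 ± 3.19 CPM (-0.64 ± 0.09, adjusted p = 0.000643), and Lims2, a PINCH adaptor of integrin-linked kinase, from 100.5 ± 18.6 to 50.9 ± 6.09 CPM (-0.98 ± 0.14, adjusted p = 0.00109). Tns3, another tensin, and Parva, the parvin of the same kinase complex, fell less (-0.49 ± 0.12 and -0.41 ± 0.13, adjusted p = 0.0150 and 0.0479). The call of Parva was lost without any 1 of the controls, and without simvastatin replicate 1 or 3. The shares called in the lists of partner genes and in the integrin and laminin genes are counts of chosen lists, and were not tested against those of all genes.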

How the data were processed

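RNA was sequenced from 8 samples of cultured E12.5 mouse cardiomyocytes, 4 control and 4 treated with simvastatin at 10 µM; the treatment label set the group. The authors deposited unnormalized counts of reads for every gene. They used Trimmomatic 0.36, STAR 2.5.2b and featureCounts (Subread 1.5.2) with GRCm38 or mm10, per the submitters' processing notes. Whether strand was used, and which annotation release, was not given in the sources used here. Totals ran from 30474586 to 35215640 counts per library, and every row had a gene identifier. Gene symbols were looked up in GENCODE release 21 of the mouse annotation (GRCm38), which matched 99.3% of identifiers, and coordinates are those of the files. Within each group every pair of libraries differed by more than sampling noise (chi-square per degree of freedom 16.4 to 82.2), so none was counted as a copy.

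From the counts, CPM and RPKM were computed with TMM-scaled library totals and the exon lengths in the files. All genes passing filterByExpr (16126) were fitted with edgeR 4.0.16 in R 4.3.3, using the two-sided quasi-likelihood F test on treatment alone. P-values were adjusted by Benjamini-Hochberg over all genes, with 0.05 as the threshold. The biological coefficient of variation over all genes was 0.222. The SE of a log2 fold change was its size divided by the square root of F. The edgeR step was tested on simulated data. Python 3.11.15 was used for levels, shares and promoters.

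All 34 genes are named. Values in every library are given for those with an adjusted p under 0.05 or among the 12 with the highest mean RPKM, and for others where the text turns on them. From each list of partner genes the 4 with the smallest adjusted p are named. Some genes this rule took are not reported here, but they stay in the counts. The genes and lists were chosen with earlier results of these data known. No test was made on a list as a whole. The alternatives tried were the size factors of DESeq2, unscaled totals, limma-voom (limma 3.58.1), DESeq2's own test (DESeq2 1.42.0), 2 other filters, the replicate number as a block, the set as a term, each set alone and each library left out.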

Additional observations from a re-analysis of the deposited data

Results flagged for a closer look

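Groups of 4 libraries were checked, a control and a simvastatin group for each gene with values in the text except Col4a1 and Col4a2. Among these 128 groups, 6 held a library far from the other 3, where chance gives about 1 in 20, or 6.4. Itga5 measured 279 CPM in simvastatin replicate 2, against 206 to 218 in the other treated libraries. For Itgb3 control replicate 2 stood at 20.8 CPM, with the remaining controls at 13.2 to 13.9. Itgb7 measured 0.645 CPM in simvastatin replicate 3, against 0.329 to 0.378. Lama5 measured 99.5 CPM in control replicate 3, against 87.9 to 89.7. Col4a3 was at 45.7 CPM in simvastatin replicate 4, with 55.9 to 57.7 in the other treated libraries, and Col18a1 at 166 CPM in simvastatin replicate 3, with 142 to 143.

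Among the 32 tested integrin and laminin genes, the libraries of Itga7 and Itgb1 moved in opposite directions with simvastatin in set 1 and set 2 and did not overlap within either set. Of all genes tested, 5.44% had this pattern. The effect in set 2 minus that in set 1 was 0.38 on the log2 scale for Itga7 (adjusted p = 0.370, interaction term in edgeR) and -1.39 for Itgb1 (adjusted p = 0.0969). Dag1 showed the same, with -1.27 (adjusted p = 0.127). For these 3 genes the difference did not pass after adjustment over all genes. It passed for 3 marker genes with values in the text, Tcf21 (2.44, adjusted p = 0.0351), Col3a1 (1.52, adjusted p = 0.0277) and Acta2 (1.21, adjusted p = 0.0379), which fell less in set 2 than in set 1.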

How the results depend on the processing

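The 8 calls were compared over 18 alternatives. Itga1, Itga4, Itgb3, Itgb6 and Lamb3 passed in all 18, Itga5 in 17, Itga9 in 14 and Lamb1 in 13, and none of the 8 changed direction. The number of integrin and laminin genes called higher was 4 with DESeq2 and 4 with the set as a term, and 2 to 3 when 1 library was left out; the number called lower was 7 with DESeq2, with no filter beyond 1 count and with the set as a term (Itga8 gained), and 4 to 6 when 1 library was left out. Of all genes, 648 were higher and 979 lower in set 1 alone, and 817 to 1115 were higher and 1185 to 1417 lower when 1 library was left out, lowest for higher genes without simvastatin replicate 3. Fewer samples enter these fits. The cause of these and the other shifts was not tested.

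No pairing of the samples by the replicate numbers in the titles was seen. Same-numbered libraries correlated at -0.16 to 0.13 in their deviations from the group means, and 0 of 8 libraries correlated best with their own number. Such correlations cannot exclude that same-numbered libraries shared a preparation. With the replicate number as a block, the same 8 genes were called (2 higher, 6 lower). The block gave 0 higher among other integrin ligands, and log2 fold changes of 0.0512 for Itga11, 0.0429 for Itgam and 0.0203 for Itgb1, which changed sign. It ended the calls of Fn1, Thbs2, Tcf21, Pdgfra and Col3a1 and no other call among the named partner and marker genes.

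For basement membrane partners the number lower was 2 with DESeq2, 4 with no filter beyond 1 count, 0 with a filter of 1 CPM in 4 libraries, 2 with the set as a term, 5 in set 2 alone and 1 to 3 when 1 library was left out, and 3 were higher in set 1 alone. Among other laminin receptors 4 were higher in set 1 alone and 2 lower in set 2 alone. Of the cytoplasmic linkers 1 was higher and 2 lower in set 1 alone. For other integrin ligands the number higher was 0 with limma-voom, with no filter and in set 1 alone, 3 in set 2 alone, and 0 to 1 when 1 library was left out.

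Genes whose log2 fold change changed sign were all uncalled in the fit of all libraries. In set 2 alone the values were -0.0519 for Itga6, 0.15 for Itga7, 0.33 for Itga11, 0.31 for Itgam, -0.28 for Itgb4, -0.22 for Lama5, 0.0582 for Lamc1 and 0.0997 for Vcam1. In set 1 alone they were -0.35 for Itga10, 0.68 for Itgb1 and 0.57 for Dag1. Limma-voom gave 0.0641 for Itga11, 0.0488 for Itgam and 0.0217 for Itgb1, library totals alone gave 0.0030 for Itgb1, and the set as a term gave 0.00956 for Itgb1 and -0.00030 for Itgax. With 1 library left out the ranges were -0.25 to 0.10 for Itga3, -0.0462 to 0.18 for Itga6, -0.11 to 0.0082 for Itga7, -0.41 to 0.47 for Itga10, -0.28 to 0.26 for Itga11, -0.45 to 0.58 for Itgax and -0.19 to 0.32 for Itgam. They were -0.24 to 0.15 for Itgb1, -0.0561 to 0.54 for Lama1, -0.0560 to 0.21 for Lama5, -0.0882 to 0.0105 for Lamc1, -0.28 to 0.0903 for Dag1 and -0.15 to 0.0779 for Vcam1. Depth limits Lama3 and Lamc3, which were not tested.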
